A study of Mus musculus with 12 samples.

Results

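The genes described here govern the passage of a cell from G1 into S phase: the D-type cyclins Ccnd1, Ccnd2 and Ccnd3, their kinases Cdk4 and Cdk6, the inhibitors Cdkn1a, Cdkn1b, Cdkn1c and Cdkn2c, and the retinoblastoma gene Rb1. The 10 genes were chosen by name, with earlier results of these data known. Every probe set whose single gene symbol was one of them was taken, which gave 27 probe sets out of 34945 with 1 symbol and 10 genes out of 18193. No probe set was filtered out. Of the 27, 20 had a mean above the median of all probe sets and 7 a mean below it.

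Gene expression had been profiled in the whole neural retina with Affymetrix mouse arrays, 2 for each of 6 groups, from mice aged 10 weeks of the strains C57BL/6NCrSlc (B6) and 129X1/SvJJmsSlc (129). In each strain the groups were the intact retina (normal), the retina kept as an explant for 3 days in vitro with vehicle (3DIV), which damages it, and the explant kept for 3 days with 15 µM chir99021 (CHIR99021), an inhibitor of the kinase GSK3. According to the study's methods the mice were male, vehicle was DMSO, and EdU, a thymidine analog that marks DNA synthesis, was present in the control cultures. The study asked why Müller glia proliferate more after damage in 129 than in B6. Both arrays of a group are biological replicates in the labels. Whether both retinas of a group came from 1 animal is not stated, and the p-values may then measure only the spread within an animal.

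In most adult cells the D-type cyclins are low and the retinoblastoma protein holds back E2F transcription factors. A mitogen raises the cyclins, which bind Cdk4 or Cdk6 and phosphorylate the retinoblastoma protein, and E2F targets for S phase are then expressed. Inhibitors of the Cip/Kip family (Cdkn1a, Cdkn1b, Cdkn1c) bind cyclin and kinase together, those of the INK4 family (Cdkn2c) bind Cdk4 and Cdk6 alone, and in the mature retina they are known for keeping cells, Müller glia among them, out of the cycle.

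Values are log2 of the array intensity, and each is given for array 1 and array 2 of a group in that order. Differences were tested with limma over all 12 arrays, SE is the standard error of that model, and a probe set was called at a Benjamini-Hochberg adjusted p under 0.05 over 45037 probe sets. The damage response is 3DIV minus normal, the inhibitor response is CHIR99021 minus vehicle at 3DIV, and a strain difference is 129 minus B6. A difference between the strains in a response was tested as an interaction, the response in 129 minus that in B6. The leading probe set of a gene is the one with the highest mean over the 12 arrays. The strain comparisons, damage responses and inhibitor responses share arrays, so that their values for a gene are not independent of each other.

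Replicate arrays correlated with Pearson r between 0.9965 and 0.9978 over all probe sets. The 7 rod markers measured, such as Gnat1 and Sag, summed to intensities of 72552 to 76240 in normal retina of both strains, 36835 to 41245 at 3DIV and 27254 to 29416 with CHIR99021, so that the tissue lost rod transcripts. The 10 Müller glia markers summed to 29905 to 37303 on all arrays, but single markers moved both ways. After damage 6 were called higher and 4 lower in B6, and 4 higher and 4 lower in 129. Among all probe sets 31.5% were called in B6 and 30.6% in 129. With CHIR99021 4 of the 10 were lower in 129 than in B6 and none higher, against 4.88% of all called lower. The 15 markers of microglia and macrophages summed to 1325 to 1417 in normal B6 retina, 5009 to 5610 in B6 at 3DIV and 2598 to 2648 in B6 with CHIR99021, against 908 to 943, 2403 to 2479 and 1685 to 1698 in 129. Array 2 of normal 129 retina stood apart, since 7 lens markers summed there to 25721, against 967 on array 1 and 202 to 267 on the 10 other arrays, although the labels say that the lens was dissected away. The 7 markers of pigmented epithelium summed to 4323 to 11664 in the normal retinas and 240 to 351 in the explants. In whole tissue, fewer cells of a type and less RNA per cell cannot be told apart, and the part of these shifts in the results was not tested.

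RefSeq promoter sequence on the build GRCm38.p6 was at hand for 6 of the 10 genes, in 9 windows of 250 bases before and 50 bases after a transcription start. The 3 windows below belong to those of the 6 genes that rose after damage in both strains on the leading probe set. Of the windows of these genes, only those that held the marked motif are printed, and the 250 bases before the start are shown. All lie on the plus strand: Cdk4 at chr10:127063285-127063534, Cdkn1a at chr17:29090729-29090978 and Ccnd3 at chr17:47593217-47593466. Capitals mark CACGTG (the E-box bound by Myc family proteins) in Cdk4, the p53 decamer (the consensus that p53 binds in pairs) in Cdkn1a, and TGACGT (the core of the cAMP response element) in Ccnd3.
Cdk4: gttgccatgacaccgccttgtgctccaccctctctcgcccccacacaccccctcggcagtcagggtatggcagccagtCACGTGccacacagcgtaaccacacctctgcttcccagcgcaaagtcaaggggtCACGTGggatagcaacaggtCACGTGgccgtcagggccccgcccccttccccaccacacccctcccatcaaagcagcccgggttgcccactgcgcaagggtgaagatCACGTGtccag
Cdkn1a: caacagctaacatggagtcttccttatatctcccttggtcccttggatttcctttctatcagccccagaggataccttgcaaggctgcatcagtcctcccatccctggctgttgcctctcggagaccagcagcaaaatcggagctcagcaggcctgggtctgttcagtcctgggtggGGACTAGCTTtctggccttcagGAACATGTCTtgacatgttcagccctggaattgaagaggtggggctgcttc
Ccnd3: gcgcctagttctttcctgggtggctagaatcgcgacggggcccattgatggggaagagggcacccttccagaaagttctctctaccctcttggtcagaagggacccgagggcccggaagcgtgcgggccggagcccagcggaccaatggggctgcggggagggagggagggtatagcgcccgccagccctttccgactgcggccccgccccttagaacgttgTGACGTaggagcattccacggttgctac
The Cdk6 window and 1 Cdkn2c window held CACGTG once each, in Cdkn2c at base 35 after the start. The other Cdkn2c window held none. The motifs were chosen with the windows in view and were searched on both strands together with CTTTGAT and CTTTGAA (TCF/LEF) and TTTGGCGC, TTTCCCGC and TTTCGCGC (E2F). The Cdk4 window held CACGTG at 4 places, which begin 172, 118, 98 and 11 bases before the start, and only 8 of 32544 windows (0.0246%) held it 4 times or more. It also held CTTTGAT once on the minus strand, 52 bases before the start, as did 3.73% of windows at least once. The Cdkn1a window held the p53 decamer at 73 and 51 bases before the start, and the other Cdkn1a window held none. The decamer occurred 2 times or more, at any spacing, in 0.36% of windows. TGACGT lay 28 bases before the start of Ccnd3, was absent from the other Ccnd3 window, and occurred in 7.55% of all windows. None of the 9 windows held 1 of the 3 E2F motifs. A match is a description of letters and not a binding site.

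Damage changed most of the group in both strains. In B6, 17 of the 27 probe sets rose and 3 fell, 74.1% in all, while of all probe sets on the array 31.5% were called, 14.9% as higher and 16.6% as lower. In 129, 18 rose and 1 fell, 70.4% in all, and of all probe sets 30.6% were called, 14.7% as higher and 15.9% as lower. The median response of the 27 was 0.87 log2 in B6 and 1.01 in 129, against -0.02 and -0.03 over all probe sets. The genes were chosen with earlier results known, so that their excess over all probe sets is not a test of the group. Ccnd2 alone gave 7 of the 27, and with 1 leading probe set per gene the median was 0.66 in B6 and 0.60 in 129. Ccnd1, Ccnd2, Ccnd3, Cdk4 and Cdkn1a rose in both strains on their leading probe sets (Ccnd3 in 129 turned to -0.058 after the centring on housekeeping genes described below), and Cdkn1c fell in both. The strains differed in the damage response of 6 probe sets (22.2%), against 2.58% of all, 1.55% as higher and 1.03% as lower. The response was higher in 129 for the 3 of Ccnd1 and that of Cdkn2c, lower in 129 for the leading probe sets of Ccnd3 and Rb1. Without array 2 of 129 at 3DIV, 3 of these 6 calls were left, all of Ccnd1. When the arrays, already normalized by RMA, were further centred on housekeeping genes, the median damage response of all probe sets moved to -0.75 in B6 and -0.76 in 129. Such centring takes 1 constant off each array, so that responses relative to that median did not move, but small rises changed sign, and these are named below.

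**Figure D1:**
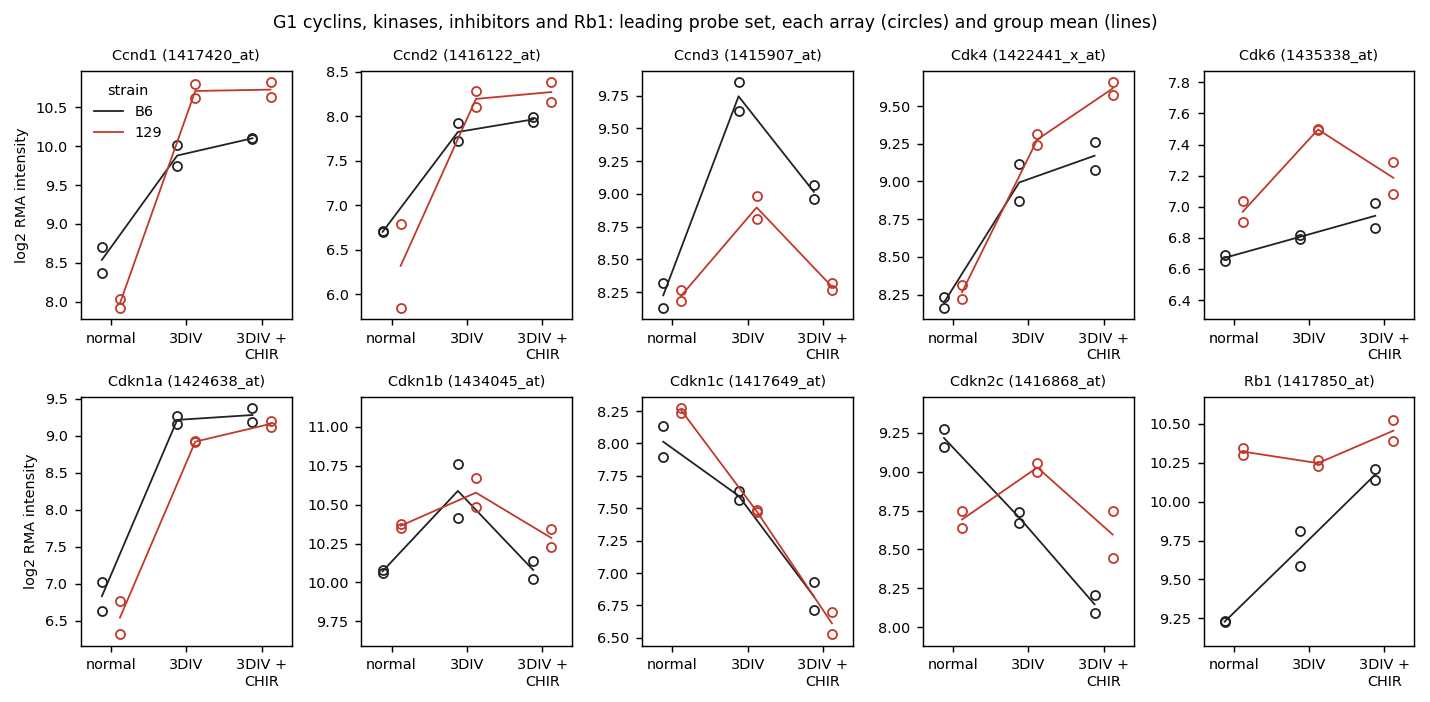
Log2 intensity (vertical axes) of the leading probe set of each of the 10 genes in the 6 groups (horizontal axes), with 1 point for each of the 2 arrays and lines joining the means of each strain. Ccnd1 at 3DIV lies between 9.74 and 10.02 in B6 and between 10.61 and 10.81 in 129, while Ccnd3 lies between 9.63 and 9.85 in B6 and between 8.81 and 8.99 in 129.

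**Figure D2:**
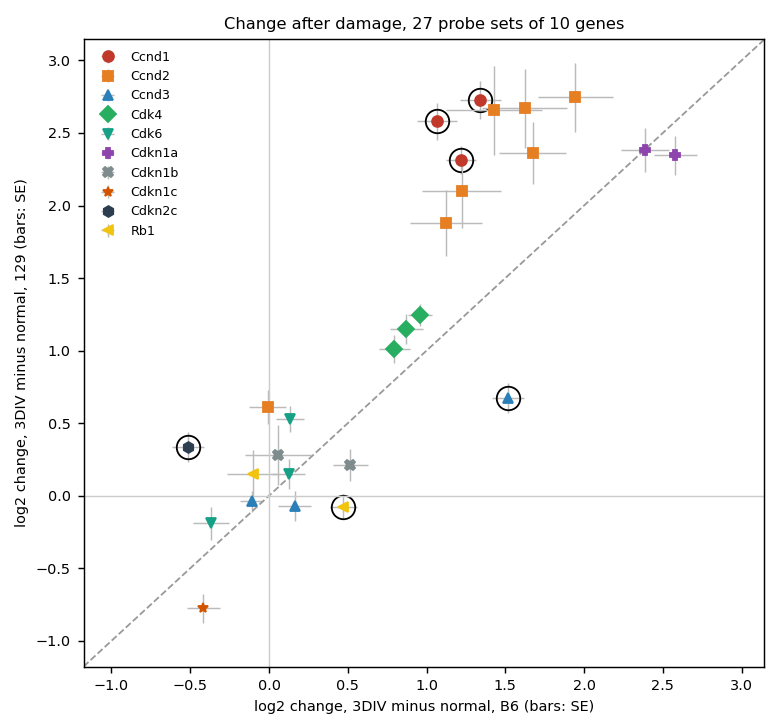
Damage response of the 27 probe sets, as log2 of 3DIV over normal retina, in B6 (horizontal axis) and 129 (vertical axis), with bars for the SE and circles for the 6 probe sets whose response differed between the strains. The 3 probe sets of Ccnd1 lie above the diagonal at 1.07 to 1.34 in B6 and 2.31 to 2.73 in 129, and the leading one of Ccnd3 lies below it at 1.52 and 0.67 (-0.058 in 129 after centring on housekeeping genes).

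Ccnd1 encodes cyclin D1, which couples mitogen signals to Cdk4 and Cdk6 and is the main D-type cyclin of embryonic retinal progenitors. It rose after damage in both strains, and the rise was larger in 129. On the leading probe set (1417420_at) the log2 intensities were 8.71 and 8.37 in normal B6 retina, 9.74 and 10.02 at 3DIV and 10.09 and 10.11 with CHIR99021. In 129 they were 7.92 and 8.04 in normal retina, 10.61 and 10.81 at 3DIV and 10.83 and 10.63 with CHIR99021. The 2 normal 129 arrays were the lowest of the 12 and the 4 explant arrays of 129 the highest, with no overlap between the explants of the strains. The rise after damage was 1.34 in B6 (SE 0.13, 2.53-fold, adjusted p = 2.03e-05) and 2.73 in 129 (SE 0.13, 6.63-fold, adjusted p = 8.31e-08). The rise in 129 exceeded that in B6 by 1.39 on this probe set (SE 0.19, adjusted p = 0.00443). On 1448698_at it did so by 1.10 (adjusted p = 0.00267), and on 1417419_at by 1.51 (adjusted p = 0.00234). All 3 of these interactions were called under each of the 18 alternatives tried, those without 1 array included.

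The fitted strain difference of Ccnd1 was negative in normal retina and positive in the explants on all 3 probe sets. In normal retina it was called on 2 of the 3. By RT-PCR the study found this cyclin higher in the strain whose Müller glia proliferate more, in intact as well as damaged retina. The direction on the arrays was the opposite in normal retina and the same in the explants. In normal retina 129 minus B6 was -0.56 on the leading probe set (adjusted p = 0.0195), -0.64 on 1448698_at (adjusted p = 0.00126) and -0.16 on 1417419_at, which was not called (adjusted p = 0.486). The first of these calls was lost without array 1 of normal B6 (-0.39, adjusted p = 0.131), without array 1 (-0.50, adjusted p = 0.12) or array 2 (-0.62, adjusted p = 0.051) of normal 129, and with only the 4 normal arrays in the model (adjusted p = 0.0666). At 3DIV Ccnd1 was higher in 129 on all 3 probe sets, by 0.83 (adjusted p = 0.00136), 0.46 (adjusted p = 0.00584) and 1.35 (2.55-fold, adjusted p = 4.72e-05), and the second call was lost without array 1 of B6 at 3DIV (0.38, adjusted p = 0.0526). With CHIR99021 it was higher in 129 by 1.04 on 1417419_at (adjusted p = 0.000358) and by 0.63 on the leading probe set (adjusted p = 0.0108), which was no longer called without array 1 or 2 of B6 with CHIR99021 (0.62, adjusted p = 0.059, and 0.63, adjusted p = 0.0534) or array 1 of 129 with CHIR99021 (0.53, adjusted p = 0.1). On 1448698_at the strain difference with CHIR99021 was 0.32 and was not called (adjusted p = 0.0569). The response to CHIR99021 itself was called on no probe set of Ccnd1 in either strain. On the leading probe set it was 0.22 in B6 (95% interval -0.07 to 0.51, adjusted p = 0.292) and 0.02 in 129 (-0.27 to 0.31, adjusted p = 0.954). The largest was 0.33 on 1417419_at in B6 (95% interval 0.05 to 0.61, adjusted p = 0.103).

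Ccnd2 encodes cyclin D2, a second D-type cyclin, and was measured by 7 probe sets. It rose after damage on 6 of them in B6, by 1.12 to 1.95 log2, and on all 7 in 129, by 0.61 to 2.74. The leading probe set (1416122_at) gave log2 intensities of 6.69 and 6.70 in normal B6 retina, 7.73 and 7.92 at 3DIV and 7.99 and 7.94 with CHIR99021, and 5.84 and 6.79, 8.28 and 8.11, and 8.39 and 8.16 in 129. The explants lay above the normal retinas in both strains, and the 2 normal 129 arrays were far apart. They differed by 0.95 on this probe set and by 1.16 on 1434745_at, with array 2, the one with the lens markers, above array 1. The rise was 1.12 in B6 (SE 0.23, adjusted p = 0.00318) and 1.88 in 129 (SE 0.23, adjusted p = 9.14e-05) on the leading probe set. After centring on housekeeping genes the rise in B6 was no longer called there (0.40, adjusted p = 0.101) or on 1416123_at (0.50, adjusted p = 0.0556), and that of the dim 1416124_at in 129 turned to -0.12.

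On all 7 probe sets of Ccnd2 the fitted rise was larger in 129, by 0.62 to 1.23, and none of these interactions was called by limma (adjusted p from 0.0786 to 0.273). Without array 2 of normal 129 retina the 7 differences ran from 0.61 to 1.81, with 1.23 on 1416122_at. In normal retina 129 minus B6 then ran from -1.25 to 0.01, against -0.67 to -0.00 with that array. Such a fit rests on array 1 alone for normal 129, which also had raised lens markers (967 against 202 to 267). On 1416122_at array 1 lay at 5.84, while array 2, at 6.79, lay near normal B6 (6.69 and 6.70). The part of the lens transcripts in this was not tested. In the explants 2 dim probe sets of Ccnd2 were called between the strains. On 1416124_at the values were 3.29 and 3.25, 3.14 and 3.38, and 3.44 and 3.65 in B6 and 3.28 and 3.25, 3.98 and 3.78, and 4.11 and 3.87 in 129, in the order normal, 3DIV and CHIR99021, so that only the explants of 129 stood above the rest. The difference was 0.62 at 3DIV (adjusted p = 0.00365) and 0.45 with CHIR99021 (adjusted p = 0.0315), the latter lost without array 1 of either CHIR99021 group (adjusted p = 0.193 without B6, 0.232 without 129) and with only the arrays compared (adjusted p = 0.0769). On 1416123_at they were 3.49 and 2.83, 4.15 and 4.62, and 4.88 and 4.80 in B6 and 2.78 and 3.47, 5.26 and 5.19, and 5.47 and 5.12 in 129, and the difference at 3DIV of 0.84 (adjusted p = 0.0375) was lost without array 1 of B6 (0.61, adjusted p = 0.231) or array 1 (0.81, adjusted p = 0.141) or 2 (0.88, adjusted p = 0.122) of 129 at 3DIV, and with replicate number as a block (adjusted p = 0.0514). CHIR99021 changed no probe set of Ccnd2 by limma, with 0.10 to 0.46 in B6 and 0.07 to 0.29 in 129.

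Ccnd3 encodes cyclin D3, the D-type cyclin known from Müller glia of the adult retina. It differed from Ccnd1 in 2 respects on its leading probe set (1415907_at), as the rise after damage was larger in B6 and as CHIR99021 lowered it in both strains. The log2 intensities were 8.13 and 8.32 in normal B6 retina, 9.63 and 9.85 at 3DIV and 8.96 and 9.07 with CHIR99021. In 129 they were 8.18 and 8.27, 8.99 and 8.81, and 8.27 and 8.32. The normal retinas of the strains overlapped, all explants with vehicle lay above the explants of the same strain with CHIR99021, and the vehicle explants of B6 were the highest of the 12. The rise was 1.52 in B6 (SE 0.10, 2.86-fold, adjusted p = 1.11e-06) and 0.67 in 129 (SE 0.10, adjusted p = 0.000474), the latter turning to -0.058 after centring on housekeeping genes. The interaction was -0.85 (SE 0.14, adjusted p = 0.0154), and its call was lost without array 2 of B6 at 3DIV (-0.74, adjusted p = 0.0602), of normal 129 (-0.80, adjusted p = 0.0511) or of 129 at 3DIV (-0.76, adjusted p = 0.0696).

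By RT-PCR the study found no significant strain difference in Cyclin D3, unlike the leading probe set in the explants. At 3DIV Ccnd3 was lower in 129 than in B6 by 1.80-fold (-0.85, adjusted p = 0.000249), and with CHIR99021 by 1.65-fold (-0.72, adjusted p = 0.000983), whereas in normal retina the difference was -0.00 (95% interval -0.23 to 0.22, adjusted p = 0.995). With CHIR99021 it fell by 0.73 in B6 (adjusted p = 0.000904) and its change in 129 was -0.60 (adjusted p = 0.0038), also a fall that was called, and the responses differed by 0.12 (95% interval -0.20 to 0.44, adjusted p = 0.751). The markers of microglia and macrophages moved the same way where explants were compared: 13 of 15 rose after damage in B6 and 11 in 129, 13 were lower in 129 at 3DIV, and 11 in B6 and 8 in 129 fell with CHIR99021, while 1 rose in 129. Among all probe sets 14.9% rose after damage in B6 and 14.7% in 129. At 3DIV 8.57% of them were lower in 129, and with CHIR99021 9.18% fell in B6 and 6.38% in 129. In normal retina 8 of the 15 markers were lower in 129 (5.45% of all probe sets), with a median of -0.41, where Ccnd3 gave -0.00. The part of these cells in the values of Ccnd3 was not tested. The other probe sets of Ccnd3 were dimmer. Of these, 1444323_at was called in no comparison, and 1438805_at was called only at 3DIV, where it was lower in 129 by -0.40 (adjusted p = 0.0209), a call lost without array 2 of B6 (-0.32, adjusted p = 0.141) or of 129 (-0.29, adjusted p = 0.168) at 3DIV and after centring on housekeeping genes (adjusted p = 0.111).

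Cdk4 is the main kinase partner of the D-type cyclins, and its upstream window with 4 E-boxes is printed above. Its 3 probe sets rose after damage in both strains, by 0.80 to 0.96 log2 in B6 and 1.01 to 1.25 in 129. The leading probe set (1422441_x_at) gave 8.23 and 8.16 in normal B6 retina, 8.87 and 9.12 at 3DIV and 9.08 and 9.26 with CHIR99021, and 8.31 and 8.22, 9.24 and 9.32, and 9.66 and 9.57 in 129. Every explant lay above every normal retina, and the CHIR99021 arrays of 129 were the highest. The rise was 0.80 in B6 (SE 0.10, adjusted p = 0.000118) and 1.01 in 129 (SE 0.10, adjusted p = 1.79e-05). In B6 the rise fell below the threshold after centring on housekeeping genes on this probe set (0.07, adjusted p = 0.476) and on 1422440_at (0.14, adjusted p = 0.183). The interaction with damage was called on none of the 3 (0.22 to 0.29, adjusted p from 0.201 to 0.472).

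With CHIR99021 all 3 probe sets of Cdk4 rose further in 129, by 0.34 (adjusted p = 0.0493), 0.31 (adjusted p = 0.0258) and 0.44 (adjusted p = 0.0205), and were called in none in B6, with 0.15 to 0.18. These 3 calls in 129 were lost when arrays were left out, with values that stayed between 0.29 and 0.38, 0.24 and 0.32, and 0.36 and 0.47 on the respective probe sets where the call was lost. Without array 1 of 129 at 3DIV their adjusted p were 0.211, 0.118 and 0.109, without its array 2 0.127, 0.11 and 0.0825, and without array 1 of 129 with CHIR99021 0.224, 0.178 and 0.145. The first was also lost without array 2 of 129 with CHIR99021 (0.108), without any of the 4 normal arrays (0.0573 to 0.0624) and with replicate number as a block (0.062), and the second with only the arrays compared (0.0693). The difference between the strains in the inhibitor response was 0.12 to 0.29 and was not called (adjusted p from 0.399 to 0.658). Under CHIR99021 Cdk4 was higher in 129 than in B6 on all 3, by 0.45 (adjusted p = 0.0144), 0.42 (adjusted p = 0.00476) and 0.62 (adjusted p = 0.00313), the first lost without array 1 of B6 (0.35, adjusted p = 0.112) or of 129 (0.40, adjusted p = 0.108) with CHIR99021 and the second without the latter (0.35, adjusted p = 0.0547).

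At 3DIV with vehicle only 1422439_a_at of Cdk4 was called between the strains. Its log2 intensities were 7.53 and 7.48, 8.41 and 8.51, and 8.60 and 8.70 in B6 and 7.52 and 7.52, 8.75 and 8.77, and 9.14 and 9.0 in 129, in the order normal, 3DIV and CHIR99021. The normal retinas lay together and the explants of 129 lay above those of B6 in both conditions. The difference at 3DIV was 0.30 (adjusted p = 0.0196), and it was lost without array 1 of B6 (0.25, adjusted p = 0.118), array 1 of 129 (0.31, adjusted p = 0.0749) or array 2 of 129 (0.29, adjusted p = 0.1) at 3DIV.

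Cdk6, the second kinase of the D-type cyclins, changed less. On the leading probe set (1435338_at) the log2 intensities were 6.65 and 6.69 in normal B6 retina, 6.79 and 6.82 at 3DIV and 6.86 and 7.02 with CHIR99021, and 7.04 and 6.90, 7.50 and 7.49, and 7.29 and 7.08 in 129. All 6 arrays of 129 except 1 normal array lay above all arrays of B6, and the vehicle explants of 129 were the highest. In 129 Cdk6 rose after damage by 0.53 (SE 0.09, adjusted p = 0.00102), which turned to -0.20 after centring on housekeeping genes, and in B6 the change was 0.13 (95% interval -0.06 to 0.33, adjusted p = 0.298). The interaction was 0.39 (adjusted p = 0.141). At 3DIV it was higher in 129 by 0.69 (1.61-fold, adjusted p = 0.000401), a difference called under all 18 alternatives. Its fall with CHIR99021 in 129 (-0.31, adjusted p = 0.0475) was lost under 13 of the 18, among them the omission of either 129 array at 3DIV (adjusted p = 0.163 and 0.169) or of array 2 of 129 with CHIR99021 (-0.21, adjusted p = 0.273).

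The other probe sets of Cdk6 gave little more. On the dim 1460291_at the values were 4.19 and 4.51 in normal B6 retina, 4.11 and 3.85 at 3DIV and 4.10 and 4.19 with CHIR99021, and 4.26 and 4.12, 3.98 and 4.01, and 4.04 and 4.11 in 129. Array 2 of normal B6 was the highest of the 12 and array 2 of B6 at 3DIV the lowest, while the other arrays lay close together. The fall in B6 after damage was -0.37 (adjusted p = 0.0334) and was lost without array 2 of normal B6 (-0.21, adjusted p = 0.246) or of B6 at 3DIV (-0.24, adjusted p = 0.234) and with only the arrays compared (adjusted p = 0.101). The third probe set, 1455287_at, was called in no comparison.

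Cdkn1a encodes p21, a Cip/Kip inhibitor and a known target of p53. It rose after damage in both strains, by values that lay within the error of each other. On the leading probe set (1424638_at) the log2 intensities were 6.64 and 7.02 in normal B6 retina, 9.27 and 9.17 at 3DIV and 9.19 and 9.37 with CHIR99021, and 6.31 and 6.77, 8.93 and 8.92, and 9.20 and 9.12 in 129. All 8 explants stood far above all 4 normal retinas, with no overlap and little spread between the strains. The rise was 2.39 in B6 (SE 0.15, 5.23-fold, adjusted p = 6.92e-07) and 2.38 in 129 (SE 0.15, 5.21-fold, adjusted p = 6.5e-07), and their difference was -0.00 (95% interval -0.48 to 0.47, adjusted p = 0.995). CHIR99021 changed it by 0.07 in B6 (adjusted p = 0.823) and by 0.24 in 129 (adjusted p = 0.36). The second probe set, 1421679_a_at, gave 6.53 and 6.35, 9.0 and 9.03, and 8.80 and 8.96 in B6 and 6.35 and 5.85, 8.43 and 8.47, and 8.66 and 8.66 in 129, with rises of 2.58 (adjusted p = 1.94e-07) and 2.35 (adjusted p = 3.35e-07). On that probe set the vehicle explants of 129 lay below those of B6 by -0.57 (adjusted p = 0.0138), a call lost without any 1 of the 4 arrays concerned (adjusted p from 0.0568 to 0.0761), and on the leading one the difference was -0.29 (adjusted p = 0.211).

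Cdkn1b encodes p27, the Cip/Kip inhibitor best known for holding Müller glia in quiescence. On its bright leading probe set (1434045_at) the log2 intensities were 10.08 and 10.06 in normal B6 retina, 10.41 and 10.76 at 3DIV and 10.02 and 10.14 with CHIR99021. In 129 they were 10.38 and 10.35, 10.67 and 10.49, and 10.23 and 10.34. In B6 the vehicle explants stood above both other groups, and in 129 they were again the highest, by a smaller step, with the CHIR99021 arrays below both normal arrays. In B6 it rose by 0.52 after damage (SE 0.11, adjusted p = 0.00476), which turned to -0.21 after centring on housekeeping genes, and fell by 0.51 with CHIR99021 (SE 0.11, adjusted p = 0.0101). The latter call was lost without array 2 of B6 at 3DIV (-0.33, adjusted p = 0.0782) or array 1 of B6 with CHIR99021 (-0.45, adjusted p = 0.0677). In 129 the same steps were 0.21 (adjusted p = 0.188) and -0.29 (adjusted p = 0.124).

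The second probe set of Cdkn1b, 1419497_at, which had a mean below the median of all probe sets, gave another pattern. Its log2 intensities were 4.59 and 5.37 in normal B6 retina, 4.90 and 5.19 at 3DIV and 6.05 and 6.16 with CHIR99021, and 6.64 and 6.31, 6.75 and 6.76, and 6.41 and 6.23 in 129. The normal and vehicle arrays of B6 were the lowest of the 12, apart from all others. It was higher in 129 by 1.49 in normal retina (adjusted p = 0.000879) and by 1.72 at 3DIV (adjusted p = 0.000256), and with CHIR99021 the difference was 0.21 (adjusted p = 0.606). The leading probe set showed no called strain difference, with 0.29 (adjusted p = 0.131), -0.01 (adjusted p = 0.961) and 0.21 (adjusted p = 0.308) in the same order. In B6 1419497_at rose by 1.07 with CHIR99021 (adjusted p = 0.00538), the opposite of the leading probe set, and in 129 the change was -0.43 (adjusted p = 0.22). The interaction with the inhibitor was -1.50 (SE 0.29, adjusted p = 0.0356), and it was lost without any 1 of the 8 explant arrays, with values from -1.64 to -1.36 and adjusted p from 0.0698 to 0.131. Both probe sets of Cdkn1b thus differed in direction under CHIR99021 in B6.

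Cdkn1c encodes p57, the third Cip/Kip inhibitor, and was the member that fell at both steps in both strains. Its only probe set (1417649_at) gave log2 intensities of 8.13 and 7.89 in normal B6 retina, 7.56 and 7.63 at 3DIV and 6.93 and 6.71 with CHIR99021, and 8.24 and 8.27, 7.48 and 7.47, and 6.70 and 6.53 in 129. The 3 conditions did not overlap within or between the strains. After damage it fell by 0.42 in B6 (SE 0.10, adjusted p = 0.00966) and by 0.78 in 129 (SE 0.10, 1.71-fold, adjusted p = 0.000167). With CHIR99021 it fell by a further 0.78 in B6 (1.71-fold, adjusted p = 0.000617) and 0.87 in 129 (1.82-fold, adjusted p = 0.000486). The fall in B6 after damage was lost without array 1 of normal B6 (-0.30, adjusted p = 0.0804) or of B6 at 3DIV (-0.38, adjusted p = 0.063). No strain difference or interaction was called for Cdkn1c, with a difference between the strains of -0.36 in the damage response (95% interval -0.68 to -0.04, adjusted p = 0.231) and -0.09 in the inhibitor response (-0.41 to 0.23, adjusted p = 0.831).

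Cdkn2c encodes p18, an INK4 inhibitor, and its fitted damage response had opposite signs in the 2 strains. After centring on housekeeping genes its rise in 129 turned to a called fall (-0.40, adjusted p = 0.00776). On its only probe set (1416868_at) the log2 intensities were 9.16 and 9.27 in normal B6 retina, 8.74 and 8.67 at 3DIV and 8.21 and 8.09 with CHIR99021. In 129 they were 8.64 and 8.75, 9.0 and 9.06, and 8.75 and 8.44. B6 stepped down from normal to vehicle to CHIR99021 without overlap, while in 129 the vehicle explants were the highest. After damage it fell by 0.51 in B6 (SE 0.10, adjusted p = 0.00287) and rose by 0.33 in 129 (SE 0.10, adjusted p = 0.0285), and the interaction was 0.85 (SE 0.14, adjusted p = 0.015). The call of the rise in 129 was lost without either normal 129 array (adjusted p = 0.152 and 0.0539) or either 129 array at 3DIV (adjusted p = 0.0784 and 0.129). The interaction was lost without array 2 of B6 at 3DIV (0.81, adjusted p = 0.0611), array 1 of normal 129 (0.79, adjusted p = 0.0524) or array 2 of 129 at 3DIV (0.82, adjusted p = 0.0668).

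The strain difference of Cdkn2c was -0.52 in normal retina (adjusted p = 0.0068), 0.32 at 3DIV (adjusted p = 0.0477) and 0.45 with CHIR99021 (adjusted p = 0.0163). The first was lost without array 1 of normal 129 (-0.47, adjusted p = 0.0582) and after centring on housekeeping genes (-0.34, adjusted p = 0.0568). The second was lost under 12 of 18 alternatives, among them the omission of any 1 of the 4 vehicle arrays (adjusted p from 0.107 to 0.2). The third was lost without array 2 of B6 (0.39, adjusted p = 0.11) or array 1 of 129 (0.30, adjusted p = 0.141) with CHIR99021 and with only the arrays compared (adjusted p = 0.0775). With CHIR99021 Cdkn2c fell in both strains, with -0.56 in B6 (adjusted p = 0.00379) and -0.43 in 129 (adjusted p = 0.0204), the latter call lost without array 1 (-0.46, adjusted p = 0.0726) or 2 (-0.40, adjusted p = 0.119) of 129 at 3DIV, array 2 of 129 with CHIR99021 (-0.28, adjusted p = 0.14) and with only the arrays compared (adjusted p = 0.0655).

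Rb1 encodes the retinoblastoma protein, the substrate of the D-type cyclin kinases that holds E2F factors, and of the leading probe sets its had the largest strain difference in normal retina. On its leading probe set (1417850_at) the log2 intensities were 9.22 and 9.23 in normal B6 retina, 9.81 and 9.59 at 3DIV and 10.21 and 10.14 with CHIR99021. In 129 they were 10.35 and 10.30, 10.27 and 10.23, and 10.39 and 10.52. B6 climbed from group to group without overlap, while 129 stayed within a narrow band above every B6 array. Rb1 was higher in 129 by 1.09 in normal retina (SE 0.09, 2.14-fold, adjusted p = 1.57e-05) and by 0.55 at 3DIV (adjusted p = 0.00135), and by 0.28 with CHIR99021, where it was not called (95% interval 0.09 to 0.47, adjusted p = 0.0655). In B6 it rose by 0.47 after damage (adjusted p = 0.00177), which turned to -0.26 (adjusted p = 0.0419) after centring on housekeeping genes, and by a further 0.47 with CHIR99021 (adjusted p = 0.0038). In 129 the changes were -0.07 (adjusted p = 0.576) and 0.21 (adjusted p = 0.154). The difference between the strains in the damage response was -0.55 (adjusted p = 0.0448), and it was lost under 14 of 18 alternatives, with adjusted p up to 0.151. The dim second probe set, 1444400_at, was called in no comparison.

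**Figure D3:**
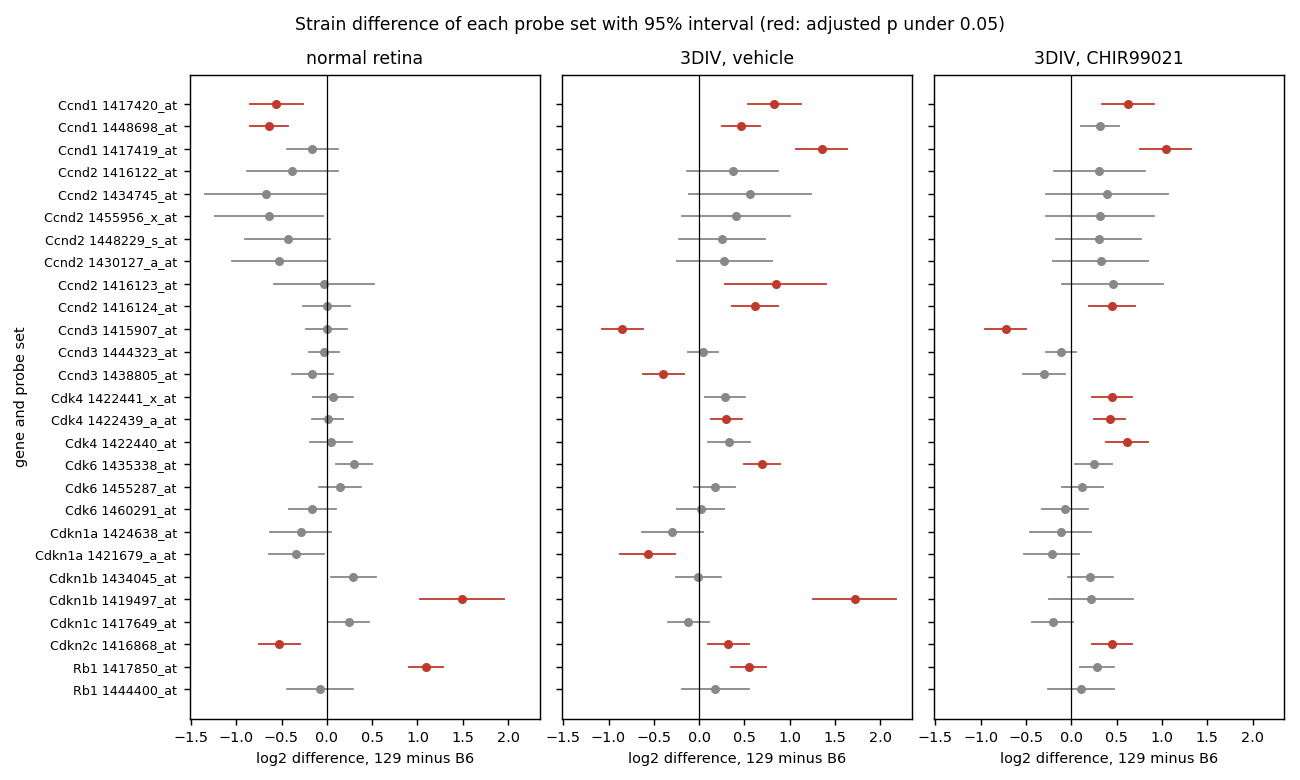
Strain difference of the 27 probe sets, as log2 of 129 over B6, in normal retina, at 3DIV with vehicle and with CHIR99021 (panels), with bars for the 95% interval and red for the probe sets called. The leading probe set of Rb1 lies at 1.09, 0.55 and 0.28 in the 3 panels, and that of Ccnd1 at -0.56, 0.83 and 0.63.

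Counted by strain, 2 of the 27 probe sets were higher and 3 lower in normal 129 retina, 18.5% in all, and of all probe sets 11.5% were called, 6.07% as higher and 5.45% as lower. At 3DIV 10 were higher and 3 lower (48.1%), and of all probe sets 20.0% were called, 11.4% as higher and 8.57% as lower. With CHIR99021 7 were higher and 1 lower (29.6%), and of all probe sets 10.9% were called, 6.01% as higher and 4.88% as lower. In normal retina the higher ones were the leading probe set of Rb1 and 1419497_at of Cdkn1b, and the lower ones 2 of Ccnd1 and that of Cdkn2c. Without array 2 of normal 129 the count in normal retina was 9, with 5 probe sets of Ccnd2 added on the low side and 1 of Ccnd1 lost there. Without array 1 of B6 or array 2 of 129 at 3DIV the count there was 8 in each case, and with CHIR99021 it was 5 without array 1 of B6 and 3 without array 1 of 129.

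CHIR99021 called fewer members. In B6 2 probe sets rose and 4 fell (22.2%), and of all probe sets 18.6% were called, 9.42% as higher and 9.18% as lower. In 129 3 rose and 4 fell (25.9%), and of all probe sets 12.2% were called, 5.87% as higher and 6.38% as lower. Ccnd3, Cdkn1c and Cdkn2c fell in both strains on their leading probe sets, and Cdkn1b fell in B6. Rb1 and 1419497_at of Cdkn1b rose in B6, and the 3 probe sets of Cdk4 rose in 129. Without 1 array the count in 129 was 2 (array 1 or 2 at 3DIV) or 4 (array 1 or 2 with CHIR99021), with the falls of Ccnd3 and Cdkn1c called each time. After centring on housekeeping genes 6 rose and 4 fell in B6. The strains differed in the response of 1 probe set, 1419497_at of Cdkn1b (3.7%), with 1.35% of all probe sets called, 0.389% as higher and 0.966% as lower.

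**Figure D4:**
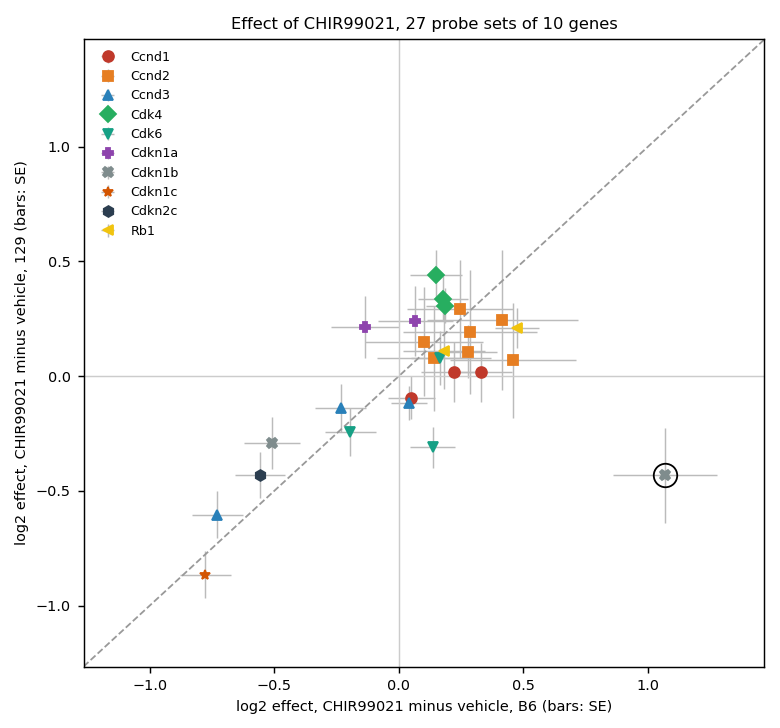
Inhibitor response of the 27 probe sets, as log2 of CHIR99021 over vehicle at 3DIV, in B6 (horizontal axis) and 129 (vertical axis), with bars for the SE and a circle for the probe set whose response differed between the strains. Ccnd3, Cdkn1c and Cdkn2c lie at lower left, between -0.56 and -0.78 in B6 and between -0.43 and -0.87 in 129.

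The wider pathway was read from 29 other genes of the G1/S passage, all of them measured and each counted on its leading probe set. After damage 8 of the 29 were higher in B6 and 4 lower, and in 129 these counts were 12 and 1. The shares of all probe sets were 14.9% higher and 16.6% lower in B6, and 14.7% and 15.9% in 129. The median damage response of the 29 was -0.03 in B6 and 0.13 in 129, where all probe sets had -0.02 and -0.03. With CHIR99021 4 of the 29 rose and 5 fell in B6, and 6 rose and 3 fell in 129. The shares of all probe sets were 9.42% and 9.18% in B6, and 5.87% and 6.38% in 129. In 129 compared with B6, 1 of the 29 was higher and 2 were lower in normal retina. At 3DIV 8 were higher and none lower, and with CHIR99021 11 were higher and none lower. The shares of all probe sets were 6.07% higher and 5.45% lower in normal retina, 11.4% and 8.57% at 3DIV, and 6.01% and 4.88% with CHIR99021. Other probe sets of these genes were not counted, and the study lists 1 of E2f6 as higher in B6 after damage. No interaction was called by limma for the 29, and 10 had an unadjusted p under 0.05 for the damage response and 7 for the inhibitor response. The largest change was that of Cks1b, which helps the SCF ligase mark p27 for destruction. Its log2 intensities were 7.48 and 7.30, 9.04 and 9.16, and 9.41 and 9.45 in B6 and 7.38 and 7.54, 9.64 and 9.60, and 10.56 and 10.25 in 129, in the order normal, 3DIV and CHIR99021, and the rise after damage was 1.71 in B6 (adjusted p = 7.31e-07) and 2.16 in 129 (4.47-fold, adjusted p = 1.2e-07). In 129 the INK4 inhibitor Cdkn2b rose after damage by 1.24 (adjusted p = 0.000234), the phosphatase Cdc25a by 0.83 (adjusted p = 0.000163), the S phase kinase Cdk2 by 0.77 (adjusted p = 0.000154), and the repressor E2f6 by 0.73 (adjusted p = 1.93e-05, turning to -5e-04 after centring on housekeeping genes). In B6 the same 4 genes were also called higher after damage, Cdkn2b by 1.18 (adjusted p = 0.000342), Cdc25a by 0.38 (adjusted p = 0.022), Cdk2 by 0.29 (adjusted p = 0.0463) and E2f6 by 0.59 (adjusted p = 0.000106). After centring on housekeeping genes the last 3 turned to -0.35 (adjusted p = 0.0115), -0.44 (adjusted p = 0.00139) and -0.14 (adjusted p = 0.107). The call of Cdc25a in B6 was lost without array 2 of normal B6 (adjusted p = 0.113) or array 1 (0.0823) or 2 (0.0851) of B6 at 3DIV, and that of Cdk2 under 11 alternatives besides that centring (adjusted p from 0.0529 to 0.252). After centring on housekeeping genes the response in 129 was 0.10 for Cdc25a (adjusted p = 0.421) and 0.04 for Cdk2 (adjusted p = 0.721). Cyclin A2 (Ccna2) rose in 129 with CHIR99021 by 0.86 (adjusted p = 0.00162).

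The genes of S phase and mitosis, which lie downstream of the members, were counted beside them. Of 23 measured, each on its leading probe set, 14 rose after damage in B6 and 18 in 129. With CHIR99021 1 rose and 2 fell in B6 while 17 rose in 129. The shares of all probe sets were 14.9% and 14.7% higher after damage in B6 and 129. With CHIR99021 they were 9.42% higher and 9.18% lower in B6, and 5.87% higher in 129. The median inhibitor response of the 23 was 0.06 in B6 and 0.65 in 129, beside 0.00 and 0.01 over all probe sets. For 10 of the 23 the inhibitor response was higher in 129 as an interaction, and for 5 the damage response. The shares of all probe sets were 0.389% and 1.55%. Mki67, which encodes the proliferation marker Ki67, gave 4.56 and 4.41, 6.86 and 6.62, and 6.93 and 6.88 in B6 and 4.15 and 4.47, 7.04 and 7.05, and 9.18 and 8.77 in 129. The CHIR99021 arrays of 129 stood above all others, and the response to CHIR99021 was 0.17 in B6 (adjusted p = 0.481) and 1.93 in 129 (3.80-fold, adjusted p = 2.57e-05), a difference of 1.76 (adjusted p = 0.00408). For Mcm5, a subunit of the replicative helicase, the difference between the strains was 0.94 in the damage response (adjusted p = 0.018) and 0.99 in the inhibitor response (adjusted p = 0.0203). The first call was lost without array 1 of normal B6 (adjusted p = 0.0513), array 2 of B6 at 3DIV (0.0724), array 1 (0.0502) or 2 (0.054) of normal 129 or array 2 of 129 at 3DIV (0.0796), and the second without any 1 of the 8 explant arrays except array 2 of 129 with CHIR99021 (adjusted p from 0.0546 to 0.0759).

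**Figure D5:**
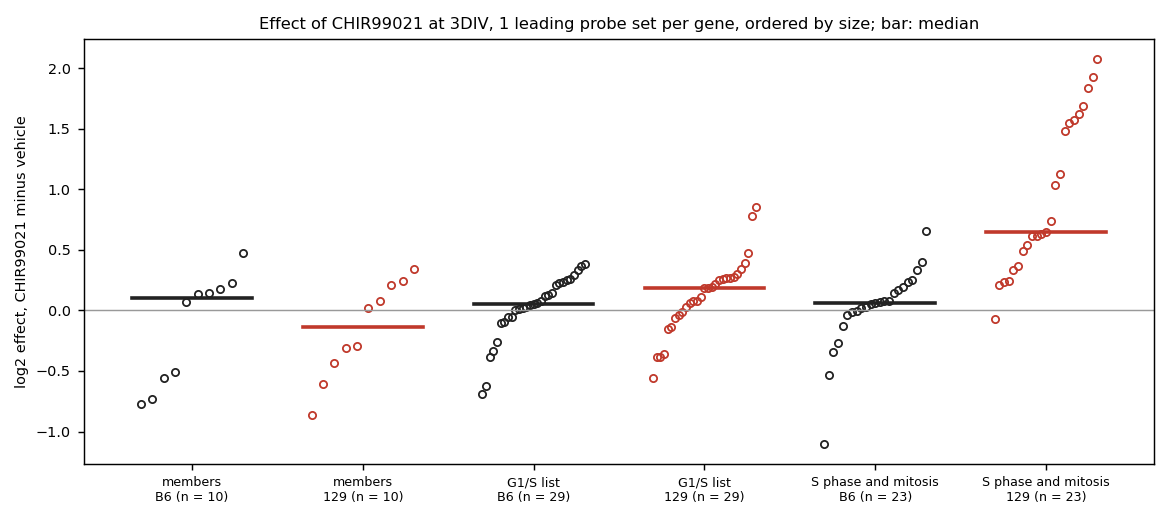
Inhibitor response (vertical axis, log2 of CHIR99021 over vehicle at 3DIV) of the leading probe set of each gene, in B6 (black) and 129 (red), for the 10 members, the 29 other G1/S genes and the 23 genes of S phase and mitosis, ordered by size, with a bar at the median. The genes of S phase and mitosis have a median of 0.06 in B6 and 0.65 in 129.

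The patterns over the 12 arrays most like those of 3 members were also listed, by Pearson r on the leading probe sets of all genes. Ccnd1 was most like Ptbp1 (r = 0.991), Hadh (r = 0.991) and Gbp3 (r = 0.990). Ccnd3 was most like Fas (r = 0.989), the chemokine gene Ccl4 (r = 0.982) and S100a1 (r = 0.978). Cdkn1a was most like Gpx8 (r = 0.994), the platelet factor gene Pf4 (r = 0.994) and the annexin gene Anxa2 (r = 0.993). The 12 points share the 6 groups and a large step from normal retina to explant, and many genes reach such values.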

How the data were processed

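The series holds 12 arrays of neural retina RNA, 2 in each of 6 groups, and groups were taken from the labels. The authors hybridized labelled RNA to Affymetrix arrays and summarized it with RMA, per the submitters' processing notes, of a version not given in the sources used here. Deposited values are linear intensities. Intensities were taken to log2, 64 control probe sets of 45101 were dropped, and no filter on signal was applied. Probe sets were named by the platform annotation, in which 34945 had 1 symbol, 932 had more than 1 and 9160 were unnamed.

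Group means were estimated from all 12 arrays together with limma 3.58.1 in R 4.3.3. Residual degrees of freedom were 6, and eBayes moderation contributed a prior of 4.69. Benjamini-Hochberg adjustment ran over 45037 probe sets within each of 9 comparisons, at 0.05. All adjusted p-values in the text come from limma. The study's methods likewise name eBayes and an FDR limit. The steps were tested on simulated data.

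The member genes, the lists and the markers were chosen with earlier results of these data known. Every probe set of a member is reported, with values per array for the leading one and for any other called where the leading one was not. Of the G1/S list, the 6 called genes with the largest change of any comparison are named, and of S phase and mitosis Mki67 and Mcm5. For the leading probe sets of Ccnd1, Ccnd3 and Cdkn1a, the 3 genes most alike by Pearson r over the 12 arrays are named.

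The 18 alternatives were each of the 12 arrays left out, replicate number as a block, only the arrays compared, cyclic loess, centring on 8 housekeeping genes, trended robust eBayes and probe sets above the median level alone. Counts were also taken with 1 leading probe set per gene. Promoter windows are those of RefSeq on GRCm38.p6, read by gene symbol. Probe sequences were not used here. The number of arrays limits the precision. Plots were drawn with matplotlib 3.10.9 in Python 3.11.15.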

Additional observations from a re-analysis of the deposited data

Results flagged for a closer look

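The results below differed between the strains in the response to damage or to CHIR99021 by the interaction in the model over all 12 arrays. Values are the log2 response in 129 minus that in B6, with adjusted p-values from limma. Groups of 2 arrays are too small for a test of single arrays that lie apart.

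The damage response of Ccnd1 was higher in 129 on all 3 of its probe sets, by 1.39 on 1417420_at (adjusted p = 0.00443), 1.10 on 1448698_at (adjusted p = 0.00267) and 1.51 on 1417419_at (adjusted p = 0.00234). That of Cdkn2c was higher in 129 by 0.85 (adjusted p = 0.015), with a fall in B6 and a rise in 129 that turned to -0.40 (adjusted p = 0.00776) after centring on housekeeping genes. That of Ccnd3 was lower in 129, at -0.85 on 1415907_at (adjusted p = 0.0154), and that of Rb1 at -0.55 on 1417850_at (adjusted p = 0.0448). The call of Rb1 was lost under 14 of 18 alternatives (adjusted p from 0.0544 to 0.151), and those of Cdkn2c and Ccnd3 were each lost without 1 of 3 arrays, while those of Ccnd1 held throughout. Among the genes of S phase, Mcm5 had a larger damage response in 129 by 0.94 (adjusted p = 0.018).

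The inhibitor response differed on 1419497_at of Cdkn1b, at -1.50 (adjusted p = 0.0356), where only the rise in B6 was called, and that difference was lost without any 1 of the 8 explant arrays (adjusted p from 0.0698 to 0.131). For Mki67 it was higher in 129 by 1.76 (adjusted p = 0.00408), and for Mcm5 by 0.99 (adjusted p = 0.0203). The calls of Mcm5 were lost under 5 alternatives for damage and 7 for CHIR99021, each the omission of 1 array.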

How the results depend on the processing

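Of 85 calls on member probe sets, 50 held under every alternative and 35 were lost under at least 1, 26 of them when an array was left out. Of 1518 values recomputed for the members, 1391 kept direction and side of the threshold, 121 fell below it and 6 changed sign. All 6 did so after centring on 8 housekeeping genes, with damage responses of -0.21 for Cdkn1b 1434045_at and -0.26 for Rb1 1417850_at in B6, and of -0.12 for Ccnd2 1416124_at, -0.058 for Ccnd3 1415907_at, -0.20 for Cdk6 1435338_at and -0.40 for Cdkn2c 1416868_at in 129. Of these, the falls of Rb1 (adjusted p = 0.0419) and Cdkn2c (adjusted p = 0.00776) were called. Of the other genes, Cdc25a (-0.35, adjusted p = 0.0115), Cdk2 (-0.44, adjusted p = 0.00139) and E2f6 (-0.14) changed sign in B6 and E2f6 (-5e-04) in 129. The same centring gave 10 calls for CHIR99021 in B6 and 2 for its interaction with strain.

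Counting 1 leading probe set per gene gave 3, 5 and 4 strain differences in normal retina, at 3DIV and with CHIR99021, 9 and 8 damage responses in B6 and 129, and 0 interactions with CHIR99021 (1 at an unadjusted limma p under 0.05). Above the median level that interaction was called for 0 probe sets (2 at an unadjusted p under 0.05).

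With 1 array left out, the counts ranged from 4 to 9 for the strain difference in normal retina, 8 to 13 at 3DIV, 3 to 9 with CHIR99021, 19 to 20 and 18 to 19 for damage in B6 and 129, 5 to 6 and 2 to 7 for CHIR99021 in B6 and 129, 3 to 8 for the interaction with damage and 0 to 1 for that with CHIR99021, where 2 to 5 probe sets had an unadjusted limma p under 0.05.

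Arrays with the same replicate number did not deviate together (r from -0.1067 to 0.0436 over 15 pairs of groups). Noise of single arrays enters every deviation, so these values cannot exclude that samples of the same number shared an animal or a session. With the number as a block 5 of 85 calls were lost, with counts of 5, 11, 8, 20, 19, 6, 5, 5 and 1 in the order above, and with cyclic loess 2 were lost. Precision is limited by 2 arrays a group, and dim probe sets have only a small range over background.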
